A study of Mus musculus with 6 samples.

Results

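The 10 genes of bile acid transport and sensing are described here, in distal colon tissue of Gm31629-/- and WT mice with DSS colitis. They were taken by gene symbol from the 27546 genes of the deposited table, and each was matched to 1 row. The list was chosen by pathway and by earlier FPKM values and differences of these same 6 libraries. Gm31629 is a long noncoding RNA, and the knockout removes its region on chromosome 1. All 6 mice were C57BL/6, 8 weeks old, and given drinking water with 3% DSS (dextran sulfate sodium, which damages the lining of the colon) for 7 days before sacrifice on day 8. There were 3 Gm31629-/- mice and 3 WT littermates, and no untreated mice, so every value is from injured colon. Each mouse had 1 RNA-Seq library and 1 column of FPKM values (fragments scaled to the length of the gene's exons and to the depth of the library), although the methods describe total RNA as pooled from the mice of each genotype. The deposited values were the base of all comparisons, on the log2(FPKM + 1) scale, which understates the fold change of low genes. A gene was tested if its FPKM averaged 0.5 or more over the libraries, which left 14657 genes.

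Bile acids are made from cholesterol in the liver, conjugated, and secreted into the intestine, where most are reclaimed. In the ileum they enter epithelial cells through the apical sodium-dependent transporter Slc10a2, are carried by the cytosolic binding protein Fabp6, and leave on the basolateral side through the heteromeric transporter made of Slc51a and Slc51b. Colonic epithelium takes up part of what escapes, largely as secondary bile acids made by bacteria, and these are ligands of nuclear receptors such as FXR (Nr1h4) and the vitamin D receptor (Vdr) and of the membrane receptor TGR5 (Gpbar1). FXR is known to induce Slc51a, Slc51b, Fabp6, the hormone Fgf15, and the corepressor SHP (Nr0b2), and its activity limits bile acid synthesis.

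The promoters of 3 transport genes are shown because these genes, which are known targets of the same pathway, had unlike values in the libraries. Each is 250 bases before and 50 bases after the start of the gene, 5′ to 3′ on the strand of the gene, from RefSeq (GRCm38.p6). The start is that of RefSeq, which equals the GENCODE start of the gene positions given further on for Slc51a and lies 182 bases downstream of it for Slc51b and 22 bases upstream of it for Fabp6. Capitals mark bases that match a searched motif. They were found at chr16:32487830-32488129 for Slc51a, chr9:65422724-65423023 for Slc51b, and chr11:43601513-43601812 for Fabp6, all on the minus strand.
Slc51a: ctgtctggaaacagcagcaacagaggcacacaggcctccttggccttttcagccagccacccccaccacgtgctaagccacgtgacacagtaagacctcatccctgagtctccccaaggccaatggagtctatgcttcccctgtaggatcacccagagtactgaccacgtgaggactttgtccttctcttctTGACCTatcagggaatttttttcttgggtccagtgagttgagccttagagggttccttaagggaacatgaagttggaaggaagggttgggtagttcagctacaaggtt
Slc51b: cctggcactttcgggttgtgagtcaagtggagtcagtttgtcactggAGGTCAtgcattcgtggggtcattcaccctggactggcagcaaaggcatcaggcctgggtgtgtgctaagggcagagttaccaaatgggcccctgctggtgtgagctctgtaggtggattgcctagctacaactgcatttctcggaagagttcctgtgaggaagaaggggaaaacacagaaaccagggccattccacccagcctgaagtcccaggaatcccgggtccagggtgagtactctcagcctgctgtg
Fabp6: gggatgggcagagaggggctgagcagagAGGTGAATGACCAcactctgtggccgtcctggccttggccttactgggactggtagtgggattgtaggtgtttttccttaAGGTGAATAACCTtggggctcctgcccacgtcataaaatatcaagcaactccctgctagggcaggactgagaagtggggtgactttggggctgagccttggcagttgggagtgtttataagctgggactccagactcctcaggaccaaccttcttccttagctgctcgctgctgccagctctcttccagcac

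Motifs were searched on both strands in the promoters of the members, of which 9 of 10 were matched and Abcc3 was not. The hexamer AGGTCA, bound by many nuclear receptors, was present in 4 of 9 (Slc51a, Slc51b, Nr1h4, and Abcc2) and in 16.3% of all 32851 promoters of the same length. In Slc51a it lay on the opposite strand at −58 to −53 from the RefSeq start, and in Slc51b on the strand of the gene at −203 to −198. The inverted repeat AGGTCANTGACCT, to which FXR is known to bind as a dimer with RXR, contains the letters of that hexamer. With up to 2 mismatches, it was found in Fabp6 alone among the members and in 1.14% of all promoters. Fabp6 held 2 such matches, AGGTGAATGACCA at −222 to −210 and AGGTGAATAACCT at −142 to −130. The direct repeat AGGTCANAGGTCA, which also overlaps the hexamer, matched Nr1h4 with 2 mismatches, and up to 2 mismatches were found in 3.86% of all promoters. The RefSeq start of Nr1h4 lies 26927 bases downstream of the GENCODE start, inside the gene. The repeat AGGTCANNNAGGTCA of the vitamin D receptor matched 0 of 9 members within 2 mismatches, against 3.06% of all promoters. These matches describe the letters in these windows only.

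The libraries held 18002694 to 18792764 mapped fragments by an estimate from the size of 1 fragment, so depth was similar in both genotypes. Correlations of log2 values across genes were 0.979 to 0.985 among WT libraries, 0.915 to 0.937 among Gm31629-/- libraries, and 0.777 to 0.853 between genotypes. Gm31629-/- mouse 1 stood apart from the other 5 in sex-linked transcripts. Xist was 0.00606 FPKM there and 8.35 to 13.8 FPKM in the others, and 4 Y-linked genes (Ddx3y, Uty, Kdm5d, and Eif2s3y) were above 0 in that library alone, whereas the methods name male mice. For tested members, results that rest on this library are given with and without it. Gm31629 itself was not analysed here, so the genotype labels were not checked against its level. All 15 markers of colon epithelium were above 0 in each library, and 3 fell (Krt8, Krt19, and Phgr1). Their summed level was 8436 to 10078 FPKM in Gm31629-/- mice and 13019 to 14309 FPKM in WT mice. Not all shared this difference. Epcam was 1109 ± 104 against 1104 ± 85.1 FPKM, and Cdh1 was 395 ± 46.5 against 405 ± 20.1 FPKM. Summed smooth muscle markers were 1165 to 1794 FPKM in Gm31629-/- mice and 21.7 to 38.3 FPKM in WT mice, and 9 of 10 rose. Summed macrophage markers were 625 to 1438 against 99.8 to 110 FPKM, and 9 of 10 rose. In whole tissue, fewer cells of a type and less RNA per cell cannot be told apart, and the part of these differences in the results was not tested.

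**Figure D1:**
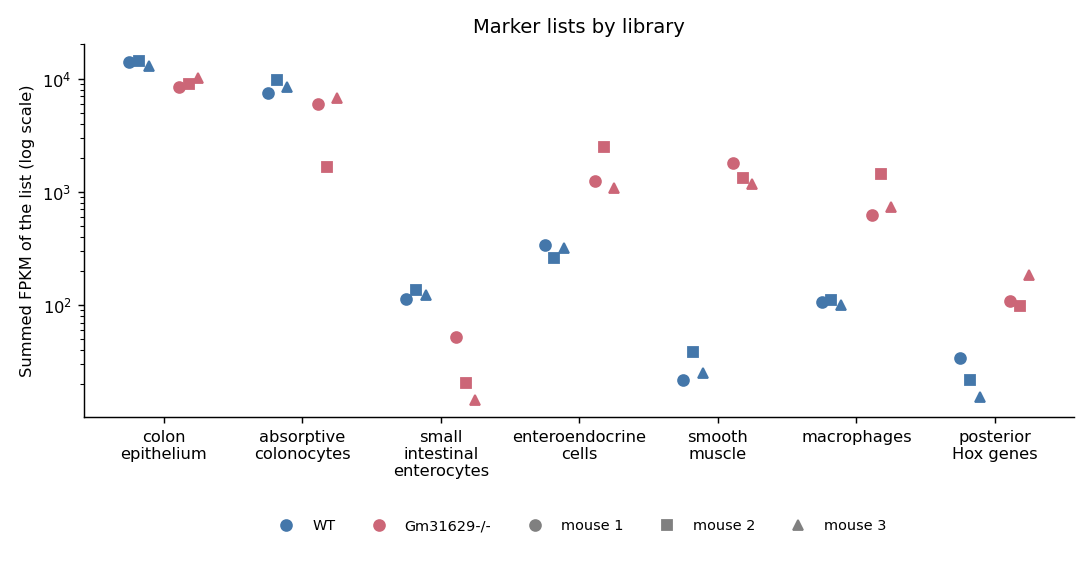
Summed FPKM (log axis) of marker lists for cell types and for posterior position in each of the 6 libraries, with WT in blue, Gm31629-/- in red, and a symbol shape for each mouse number. Smooth muscle and macrophage sums of the 3 Gm31629-/- mice lie above those of WT, and colon epithelium sums lie below.

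In WT colon, 4 of the 10 genes were expressed at a high level, 3 at an intermediate level, and 3 near 0. FPKM is scaled by gene length, so levels can be compared between genes. Mean levels were 111 ± 12.0 FPKM for Vdr, 102 ± 36.2 for Slc51a, 95.5 ± 16.3 for Abcc3, and 73.5 ± 3.35 for Nr1h4 (SD, n = 3). Among these, Vdr, Slc51a, and Abcc3 differed by less than their spread. Slc51b followed at 14.2 ± 1.39 FPKM, then Slc10a2 at 8.96 ± 1.38 and Fabp6 at 7.49 ± 4.08, the last pair differing by less than their spread. Abcc2, Gpbar1, and Nr0b2 were each below 0.36 FPKM in every WT library. In Gm31629-/- colon the order changed, with Vdr (54.6 ± 32.7 FPKM), Nr1h4 (38.1 ± 14.3), Abcc3 (25.2 ± 11.3), and Slc51b (19.7 ± 12.7) at the head and Slc51a at 0.792 ± 1.26 FPKM.

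**Figure D2:**
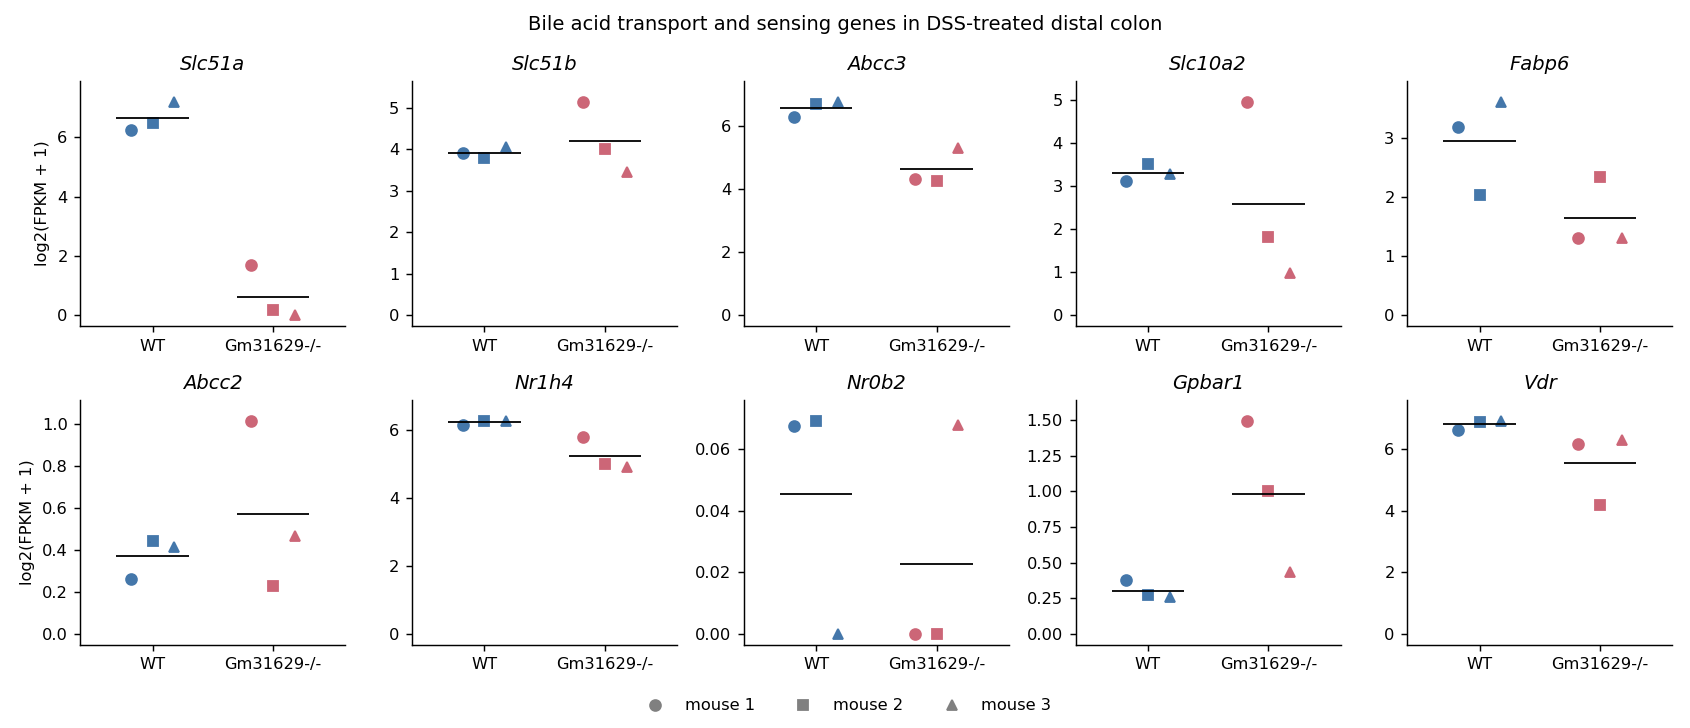
Levels of the 10 genes as log2(FPKM + 1) in each library, with WT mice in blue, Gm31629-/- mice in red, and a line at each group mean. Each panel has its own scale. Slc51a, Abcc3, Nr1h4, and Vdr have all 3 Gm31629-/- points below all 3 WT points, whereas the points of Slc51b and Slc10a2 overlap.

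The 10 genes were selected on results of this comparison, so their differences are given as a description, with no p-value. Calls required a log2 difference beyond 1 in either direction and an adjusted p under 0.05 in limma (Benjamini-Hochberg, over all tested genes). Of the 10, 8 passed the filter on low values, 2 were called lower in Gm31629-/- mice (Slc51a and Abcc3), and 0 were called higher. In comparison, 23.1% of all tested genes were called, 4.64% lower and 18.4% higher. In 5 of the 8 genes the groups were apart, with all Gm31629-/- values below all WT values for 4 (Slc51a, Abcc3, Nr1h4, and Vdr) and above for 1 (Gpbar1), where 21.5% and 36.3% of all tested genes did so, or 57.8% in either direction. Nothing is read from these counts, since the same values entered the choice of the genes. The median log2 difference was −1.13 for the 8 genes and 0.15 for all tested genes.

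Of the basolateral exporters, Slc51a and Abcc3 had the largest differences of the 8 tested genes and Slc51b the smallest. Slc51a (OSTα, ENSMUSG00000035699, chr16:32474504-32487879, GRCm38) encodes the larger subunit of the basolateral bile acid transporter. It was listed at 2.24, 0.135, and 0 FPKM in Gm31629-/- mice 1 to 3 and at 74.7, 88.9, and 143 FPKM in WT mice 1 to 3. These values rest on 132, 8, and 0 recovered fragments in the first group and on 4421, 5116, and 8614 in the second. All 3 Gm31629-/- libraries lay far below all WT libraries, and mouse 1 was the highest of them. The value of 0 in mouse 3 allows up to 3 fragments, or 0.0511 FPKM. The WT mean was 129 times the Gm31629-/- mean with all mice and 1510 times without Gm31629-/- mouse 1, where the remaining mean rests on 8 fragments, so the fold itself is not well set. The fitted difference was −6.01 on the log2(FPKM + 1) scale (SE 0.47, 95% interval −7.11 to −4.91). It ranged from −6.54 to −5.70 when each mouse was left out in turn, and was −6.54 without Gm31629-/- mouse 1. The size also depends on how low values are treated. With a pseudocount of 0.1 it was −8.02, and with voom on recovered fragments −9.45, both outside that interval.

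Slc51b (OSTβ, ENSMUSG00000053862, chr9:65412714-65422955) encodes the partner subunit, which Slc51a requires to reach the membrane. It was listed at 34.0, 15.1, and 9.90 FPKM in Gm31629-/- mice and at 14.0, 12.8, and 15.6 FPKM in WT mice. Mouse 1 was the highest of the 6 libraries and mouse 3 the lowest, so the groups overlapped. The fitted difference was 0.28 (SE 0.39, 95% interval −0.64 to 1.20), and it was −0.19 without Gm31629-/- mouse 1. The partner subunits thus had unlike differences in the same libraries. The FPKM ratio of Slc51a to Slc51b was 5.33, 6.92, and 9.18 in the WT libraries and 0.0659, 0.00895, and 0 in the Gm31629-/- libraries, with no overlap.

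**Figure D3:**
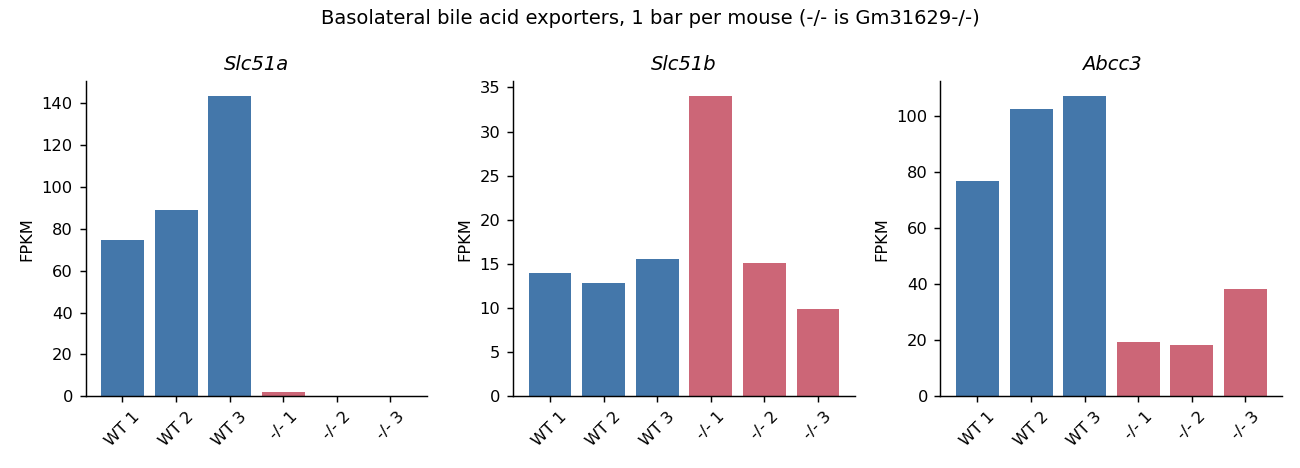
FPKM of the basolateral exporters Slc51a, Slc51b, and Abcc3 as 1 bar for each of the 6 libraries, on a linear axis from 0 that differs between panels (WT in blue, Gm31629-/- in red). Slc51a lies at 74.7 to 143 FPKM in WT mice and at 2.24 FPKM or less in Gm31629-/- mice, and Slc51b lies at 9.90 to 34.0 FPKM in all 6.

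Both subunit genes overlap a gene on the opposite strand, and the labels name an Illumina TruSeq RNA kit, which does not keep the strand. The exons of Slc51a share 567 of 3198 bases with Pcyt1a, and those of Slc51b share 91 of 709 bases with Rasl12. Pcyt1a, an enzyme of phosphatidylcholine synthesis, was at 13.1 FPKM in Gm31629-/- mouse 3, the library with Slc51a at 0. Rasl12, a small GTPase of the Ras family, was at 1.82 to 3.42 FPKM in Gm31629-/- mice and 0.267 to 0.355 FPKM in WT mice. Its part in the level of Slc51b was not tested.

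Abcc3 (MRP3, ENSMUSG00000020865, chr11:94343295-94392997) is an ATP-driven basolateral exporter of conjugated bile acids and glucuronides. Its values were 19.2, 18.2, and 38.3 FPKM in Gm31629-/- mice and 76.9, 103, and 107 FPKM in WT mice. All Gm31629-/- values were below all WT values, and mouse 3 was the highest of its group. The WT mean was 3.79 times the Gm31629-/- mean, with a fitted log2 difference of −1.95 (SE 0.30, 95% interval −2.64 to −1.25). It was called lower in each of the 6 fits that left out a mouse, at −2.28 to −1.76. Abcc3 therefore kept a larger share of its WT level than Slc51a, and the ratio of Slc51a to Abcc3 was 0.866 to 1.34 in WT libraries and 0 to 0.117 in Gm31629-/- libraries. The ratio of Slc51b to Abcc3 was 0.125 to 0.182 in WT libraries and 0.259 to 1.77 in Gm31629-/- libraries.

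Of the genes of apical uptake and cytosolic binding, Slc10a2 varied widely between Gm31629-/- mice, and Fabp6 varied within both groups. Slc10a2 (ASBT, ENSMUSG00000023073, chr8:5083219-5105351) is the sodium-dependent transporter for bile acid uptake from the lumen. It was listed at 30.0, 2.56, and 0.970 FPKM in Gm31629-/- mice and at 7.75, 10.5, and 8.69 FPKM in WT mice. Gm31629-/- mouse 1 lay above all WT mice and the other 2 below all of them, a range of 30.9-fold within the group. These values rest on 2291, 196, and 74 fragments, so counting error is small beside that range. The fitted log2 difference was −0.72 (SE 0.91, 95% interval −2.87 to 1.43), and it was −1.90, and called lower, without Gm31629-/- mouse 1 and 0.08 without mouse 3. Mouse 1 is also the library that stood apart in Xist and the Y-linked genes. The ratio of Slc10a2 to Slc51b, apical entry to a subunit of basolateral exit, was 0.881, 0.169, and 0.0980 in Gm31629-/- mice and 0.552, 0.814, and 0.557 in WT mice.

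Fabp6 (ileal bile acid binding protein, ENSMUSG00000020405, chr11:43596049-43601540) was listed at 1.47, 4.07, and 1.48 FPKM in Gm31629-/- mice and at 8.13, 3.13, and 11.2 FPKM in WT mice. The groups overlapped, since WT mouse 2 was below Gm31629-/- mouse 2. Depth limits this gene, with 13 to 36 fragments in Gm31629-/- libraries and 27 to 101 in WT libraries. Its log2 difference was −1.30 (SE 0.45, 95% interval −2.36 to −0.23), without a call, and it was called without WT mouse 2 (−1.75), without Gm31629-/- mouse 2 (−1.64), by the median ratio (−1.50), and with a pseudocount of 0.1 (−1.62).

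Abcc2 (MRP2, ENSMUSG00000025194, chr19:43782192-43840740) exports conjugates across the apical membrane. It did not pass the filter, with 1.02, 0.171, and 0.383 FPKM in Gm31629-/- mice and 0.196, 0.358, and 0.331 FPKM in WT mice. Again Gm31629-/- mouse 1 was the highest of the 6 libraries, and the other 5 overlapped.

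Among the sensors, both nuclear receptors were lower in all Gm31629-/- libraries and neither passed both thresholds. Nr1h4 (FXR, ENSMUSG00000047638, chr10:89454234-89533585) is the main bile acid receptor of liver and intestine. It was at 54.6, 31.0, and 28.7 FPKM in Gm31629-/- mice and at 69.7, 74.9, and 75.9 FPKM in WT mice, without overlap. The fitted log2 difference was −0.99 (SE 0.24, 95% interval −1.56 to −0.41), just inside the fold threshold of 1. It was called under 5 of 15 alternatives, namely without Gm31629-/- mouse 1 (−1.27), without WT mouse 1 (−1.03), by the median ratio (−1.24), with a pseudocount of 0.1 (−1.01), and with voom on recovered fragments (−1.01).

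Vdr (ENSMUSG00000022479, chr15:97854425-97910630) binds lithocholic acid, a secondary bile acid, as well as vitamin D. Its values were 69.8, 17.1, and 77.0 FPKM in Gm31629-/- mice and 97.3, 117, and 119 FPKM in WT mice. All Gm31629-/- values lay below WT, and mouse 2 was far below the other 2. The fitted log2 difference was −1.27 (SE 0.53, 95% interval −2.50 to −0.03), and it was −0.59 without that mouse. The receptors therefore ranked the Gm31629-/- mice differently, with a Vdr to Nr1h4 ratio of 1.28, 0.552, and 2.68 against 1.40, 1.56, and 1.57 in WT mice.

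Gpbar1 (TGR5, ENSMUSG00000064272, chr1:74278550-74279624) is a G protein-coupled receptor for secondary bile acids that also occurs on macrophages and enteroendocrine cells. It was low in all libraries, at 1.82, 1.01, and 0.354 FPKM in Gm31629-/- mice and 0.302, 0.207, and 0.198 FPKM in WT mice. All Gm31629-/- values were above all WT values, although 7 fragments in Gm31629-/- mouse 3 stood against 6 in WT mouse 1. The gene passed the filter only through the Gm31629-/- libraries. Its log2 difference was 0.68 (SE 0.27) and 0.42 without Gm31629-/- mouse 1, with no call. Beside it, summed macrophage markers were 625, 1438, and 731 FPKM in Gm31629-/- mice, highest in mouse 2. Summed enteroendocrine markers were 1253, 2511, and 1075 FPKM against 259 to 342 FPKM in WT mice. The 8 enteroendocrine markers were not alike, since 3 hormones rose (Gcg, Pyy, and Insl5) and 1 fell (Sct). Chga (log2 difference 0.12) and Chgb (−0.13) were not called. The part of these cells in the result was not tested.

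Nr0b2 (SHP, ENSMUSG00000037583, chr4:133553376-133556536), an atypical nuclear receptor that FXR induces in liver and ileum, had 1 fragment in each of 3 libraries and 0 in the other 3. Its highest value was 0.0491 FPKM, so no difference was detectable at this depth. Fgf15, the hormone by which the ileum signals to the liver, was likewise listed at 0 in 5 libraries and at 0.0177 FPKM in Gm31629-/- mouse 2. Nr0b2 and Fgf15, products of FXR activity known from the ileum, were thus near 0 in both genotypes, while Nr1h4 itself was at 28.7 FPKM or more in each library. The other FXR targets named above were not near 0 in WT mice. Slc51a, Slc51b, and Fabp6 had WT means of 102, 14.2, and 7.49 FPKM. FXR activity was not tested.

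**Figure D4:**
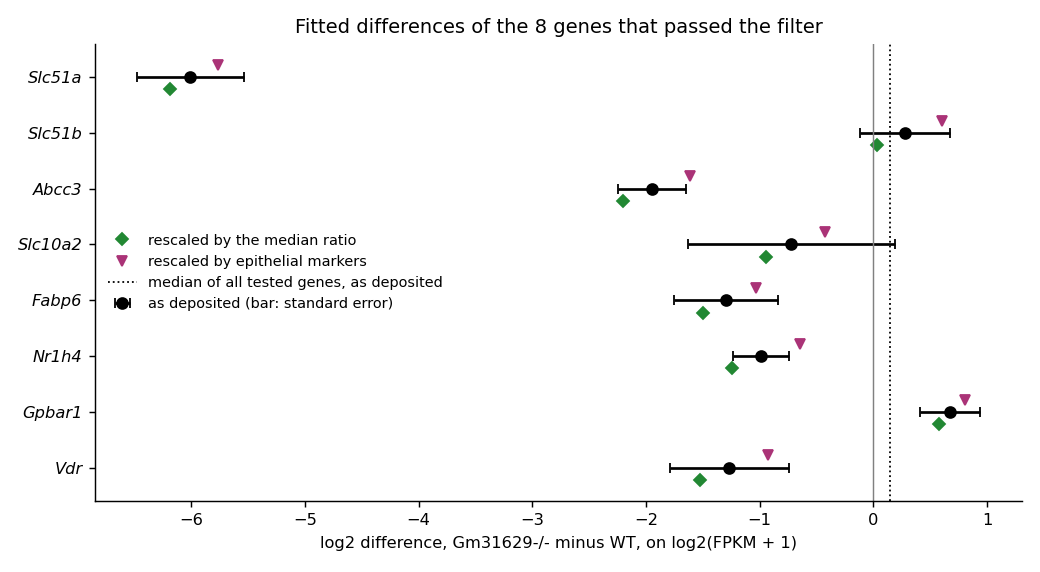
Fitted log2 difference (Gm31629-/- minus WT, on the log2(FPKM + 1) scale) of the 8 genes that passed the filter, as black points with bars of 1 standard error. Diamonds and triangles give the values after rescaling by the median ratio and by epithelial markers, and the dotted line is the median of all tested genes (0.15). Slc51a lies at −6.01 and Abcc3 at −1.95, and the bar of Slc51b (0.28) crosses 0.

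The summed epithelial markers were lower in Gm31629-/- libraries, so each gene was also set against them. The 15 markers were not alike, with 11 below 0 and 4 above and a median log2 difference of −0.50. They ranged from −1.15 for Phgr1 to 0.87 for Tmprss2, so this rescaling rests on markers that differ among themselves. Relative to the geometric mean of the 15 epithelial markers, Slc51a was 18.5 ± 8.07% in WT mice and 0.189 ± 0.301% in Gm31629-/- mice (SD, n = 3). Abcc3 was 17.1 ± 3.75% against 5.59 ± 2.09%. When the libraries were rescaled by these markers, the log2 difference was −5.77 for Slc51a and −1.61 for Abcc3, and both calls held. Nr1h4 was −0.65 and Vdr −0.93 on that scale, and Slc51b was 0.60. The rescaling moved the median of all tested genes from 0.15 to 0.41. Scaling by the median ratio moved it to −0.05 and gave −6.19 for Slc51a, −2.20 for Abcc3, −1.24 for Nr1h4, and −1.52 for Vdr. The signs of the 8 genes were the same under both scalings, with 0.03 for Slc51b by the median ratio.

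Markers of cells that handle bile acids or nutrients in other regions were read in the same libraries, because Slc51a, Slc10a2, and Fabp6 are most abundant in the ileum. Of 10 small intestinal enterocyte markers, 5 were tested, 2 fell (Fabp2 and Alpi), and 1 rose (Anpep). The tested markers were split, with 3 above 0 and 2 below and a median log2 difference of 0.11. Sums of the list were 14.5 to 52.3 FPKM in Gm31629-/- mice and 112 to 134 FPKM in WT mice. Most of the WT sum was Fabp2 (mean 68.2 FPKM) and Alpi (49.8 FPKM), the markers that fell. Fabp2, a fatty acid binding protein of enterocytes, fell by 2.71 on the log2 scale (SE 0.54, limma adjusted p = 0.00750). In Gm31629-/- mice it was highest in mouse 1 at 26.8 FPKM, the mouse with the highest Slc10a2. Lct and Fabp1, defining products of the small intestine, were below 0.2 FPKM in every library. Sis, also below the filter, was 0.257 to 0.469 FPKM in WT mice and 0.0146 to 0.0655 FPKM in Gm31629-/- mice. Its values rest on 36 to 63 and on 2 to 9 fragments. Apoa4 and Apoc3 were at 0.375 FPKM or less in every library, with higher means in Gm31629-/- mice and overlapping groups. Of 8 posterior Hox genes, which mark the distal end of the body axis, 5 were tested, 3 rose (Hoxb13, Hoxd10, and Hoxd13), and 0 fell. Hoxd13 was 8.12, 19.2, and 16.4 FPKM in Gm31629-/- mice and listed at 0 in all 3 WT mice, and Hoxb13 was 83.1 ± 43.4 against 8.34 ± 4.32 FPKM. Hoxd13 and Hoxd10 passed the filter only through the Gm31629-/- libraries. Both lists mark position along the gut, and the part of the dissected position in the values above was not tested. Absorptive colonocyte markers were 1668 to 6741 FPKM against 7513 to 9740 FPKM, lowest in Gm31629-/- mouse 2, the mouse with the lowest Vdr. Most of the WT sum was Car1 (mean 4692 FPKM, against 1249 FPKM in Gm31629-/- mice), so the difference of the sums rests largely on that gene. Of the 10, 3 fell (Car1, Cyp2c55, and Guca2b) and 0 rose, 5 lay above 0 and 5 below, and the median log2 difference was −0.03. Car4 (1.31), Slc26a3 (1.02), Aqp8 (1.02), Ceacam20 (0.59), and Slc26a2 (0.35) were those above 0, without a call.

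The other genes of bile acid handling were listed by role, and p-values were adjusted over all tested genes. Of 56 genes, 53 were in the table and 35 were tested. Of these, 5 rose by the same call in limma, 8 fell, and 22 did not pass both thresholds, against 18.4% and 4.64% of all tested genes that rose and fell. Their median log2 difference was −0.45, with 11 above 0 and 24 below. This list too was chosen with earlier results of these data known, so its counts and p-values are given as a description.

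Other carriers were mostly low. Slc10a6, a sodium-dependent transporter of sulfated steroids, rose from 0.0345 ± 0.0401 FPKM in WT mice to 9.48 ± 3.88 FPKM in Gm31629-/- mice (log2 difference 3.26, SE 0.30, limma adjusted p = 0.000487). It was higher in 3 of 3 mice, at 12.1, 11.3, and 5.02 FPKM. Its WT values rest on 0 to 3 fragments, so the size of the difference depends on the pseudocount, and it was 6.09 with a pseudocount of 0.1. The same limit holds for Chrm2, Malrd1, Ch25h, Cyp7b1, Acox2, Trpv6, and Gata4, which were low in at least 1 genotype. The apical exporter Abcg2 had a log2 difference of −0.11 (adjusted p = 0.646), and Abcc4, a basolateral exporter, 0.63 (adjusted p = 0.0926). The hepatic uptake and canalicular carriers Slc10a1, Slco1b2, and Abcb11 were at 0.322 FPKM or less in every library.

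Of 6 tested FXR partners and genes of the Fgf15 axis, 1 fell and 0 rose. Malrd1 (listed as Diet1), which is known to promote Fgf15 production in enterocytes, fell from 3.17 ± 0.494 to 0.177 ± 0.266 FPKM (log2 difference −1.84, SE 0.21, limma adjusted p = 0.000859). Its Gm31629-/- values of 0.484, 0.0322, and 0.0162 FPKM had the same order among mice as those of Slc51a. The order of mice 2 and 3 rests on 4 against 2 fragments for Malrd1 and 8 against 0 for Slc51a, so it is not well set. With a pseudocount of 0.1 the Malrd1 difference was −3.96. Rxra, the obligate partner of FXR and VDR, was 20.8 ± 3.02 against 42.4 ± 6.29 FPKM, with a log2 difference of −0.99 (adjusted p = 0.00469), inside the fold threshold. Like Nr1h4, it lay near that threshold and was called lower under 6 of 15 alternatives. It was −1.24 by the median ratio, with a call, and −0.66 by epithelial markers, without one. The ratio of Nr1h4 to Rxra was 1.29 to 2.39 in Gm31629-/- libraries and 1.64 to 1.98 in WT libraries, so the groups overlapped. Nr5a2 (LRH-1), a nuclear receptor of crypt cells, had a log2 difference of −1.15 (adjusted p = 0.0786), and Rxrb of −0.16 (adjusted p = 0.393). Nr5a2 was called lower without Gm31629-/- mouse 1 (−1.58) and by the median ratio (−1.37).

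Among other bile acid receptors and their targets, 1 of 6 tested genes rose and 1 fell. S100g (calbindin-D9k), a calcium-binding protein induced through VDR, fell from 21.8 ± 5.07 to 2.99 ± 4.02 FPKM (log2 difference −2.99, SE 0.65, limma adjusted p = 0.0100). The calcium channel Trpv6, another VDR target, was above all WT values in all 3 Gm31629-/- mice at 0.166 to 3.33 FPKM, with a log2 difference of 1.13 that missed the threshold (adjusted p = 0.0691). Cyp24a1, the vitamin D hydroxylase and a sensitive VDR target, was listed at 0 in 5 libraries and at 0.0152 FPKM in 1. Chrm2, a muscarinic receptor of smooth muscle, rose from 0.00604 ± 0.00523 to 4.48 ± 3.09 FPKM (log2 difference 2.30, adjusted p = 0.00278), beside the rise of the smooth muscle markers. Nr1i2 (PXR), a xenobiotic and bile acid receptor, was 34.6 ± 13.5 against 41.5 ± 6.37 FPKM (log2 difference −0.32, adjusted p = 0.415). Cyp3a13, a cytochrome P450 of drug and steroid metabolism, ranged from 20.8 to 172 FPKM within the Gm31629-/- group, highest in mouse 1. Its log2 difference was −0.37, without a call, and −1.15, called lower, without that mouse.

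All 8 transcription factors of enterocytes and gut regions were tested, and 5 fell, among them Hnf4a, Cdx1, and Cdx2. Hnf4a, a nuclear receptor that maintains enterocyte genes, fell from 295 ± 16.7 to 129 ± 26.3 FPKM (log2 difference −1.20, SE 0.18, limma adjusted p = 0.00253). Cdx2, the homeodomain factor of intestinal identity, was 82.1, 11.6, and 14.9 FPKM in Gm31629-/- mice and 200 to 238 FPKM in WT mice (log2 difference −3.14, SE 0.65, adjusted p = 0.00847). Cdx1, a related homeodomain factor, fell from 231 ± 7.94 to 103 ± 27.3 FPKM (log2 difference −1.19, adjusted p = 0.00502). Rescaled by the epithelial markers, Hnf4a lay at −0.86 and Cdx1 at −0.85, and neither was called, and Cdx1 also lost the call without Gm31629-/- mouse 2, at −0.96. Cdx2 kept its call on that scale. Gata4, which marks the proximal intestine and restrains ileal transport genes there, was 0.111 ± 0.0970 against 0.949 ± 0.0892 FPKM (log2 difference −0.81, adjusted p = 0.00484).

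Of 11 tested enzymes of synthesis and conjugation, 3 rose and 1 fell. Cyp27a1, a mitochondrial sterol hydroxylase of the acidic pathway that macrophages also express, rose from 7.45 ± 2.27 to 24.9 ± 11.0 FPKM (log2 difference 1.56, SE 0.34, limma adjusted p = 0.0106). Ch25h, which makes 25-hydroxycholesterol, rose from 0.176 ± 0.145 to 5.97 ± 3.08 FPKM (log2 difference 2.45, adjusted p = 0.00262). Cyp7b1, the oxysterol hydroxylase, rose from 0.210 ± 0.158 to 4.65 ± 2.77 FPKM (log2 difference 2.09, adjusted p = 0.00557). All 3 handle oxysterols, and macrophage and smooth muscle markers rose in the same libraries, with their part in these values not tested. In WT mice Ch25h had 1 to 8 fragments and Cyp7b1 3 to 15. These genes passed the filter only through the Gm31629-/- libraries, as did Slc10a6, Chrm2, and Trpv6. Malrd1, Acox2, and Gata4 passed it only through the WT libraries. With a pseudocount of 0.1 the difference was 4.43 for Ch25h and 3.84 for Cyp7b1. Acox2, a peroxisomal oxidase that shortens the bile acid side chain, fell from 1.68 ± 0.412 to 0.269 ± 0.175 FPKM (log2 difference −1.08, adjusted p = 0.00404). It was not called after rescaling by the epithelial markers (−0.93) or without WT mouse 3 (−0.95). With a pseudocount of 0.1 the Acox2 difference was −2.35. Cyp7a1, the rate-limiting enzyme of bile acid synthesis in liver, had 1 fragment in the 6 libraries together.

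**Figure D5:**
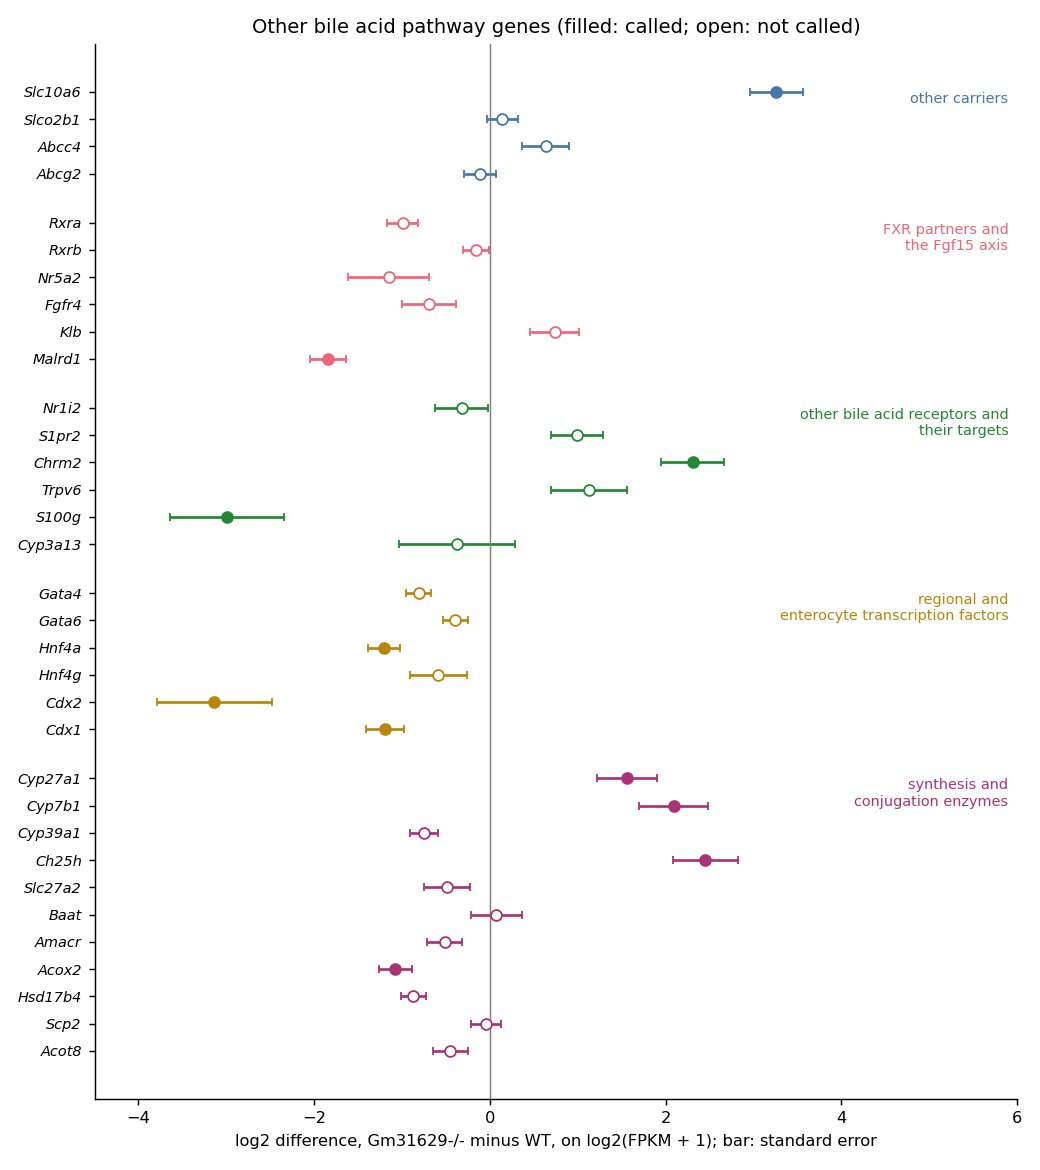
Fitted log2 difference (Gm31629-/- minus WT) of tested genes of bile acid handling by role, with bars of 1 standard error and filled marks for those past both thresholds. The transcription factors shown lie below 0, and Slc10a6 (3.26), Ch25h (2.45), and Chrm2 (2.30) lie highest.

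The genes whose values were most like those of the most abundant and of the most changed gene were named by Pearson's r of log2(FPKM + 1) over the 6 libraries. For Vdr these were Slc13a2 (r = 0.998), Dhrs11 (0.998), Glod5 (0.996), Cbr1 (0.996), and Inpp5j (0.995), and 9 genes exceeded 0.99. Slc13a2, a dicarboxylate transporter, was 63.8, 14.2, and 68.2 FPKM in Gm31629-/- mice, with the same low value in mouse 2 as Vdr. For Slc51a they included Oxa1l, Nts, Orc1, and Gpld1, with r of 0.998 to 0.999, and 59 genes exceeded 0.99. Nts, the peptide neurotensin, was 1.04 ± 1.00 FPKM in Gm31629-/- mice and 27.8 ± 4.66 FPKM in WT mice. With 6 libraries in 2 groups, the correlations with Slc51a largely repeat the difference between genotypes. Every gene named for Vdr was lowest in Gm31629-/- mouse 2, so those correlations also repeat the low value of that library.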

How the data were processed

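The data were RNA-Seq of distal colon from 3 Gm31629-/- and 3 WT mice, and groups and replicate numbers were taken from the labels. FPKM values were deposited by the authors as 1 table. The submitters' processing notes name HISAT2 2.1.0, HTSeq 0.6.0, and GRCm38, and the annotation is not given in the sources used here. The study's DEGseq comparison was not repeated, since it has no replicate spread, and p-values here measure the spread between these mice. An exact permutation test of 3 against 3 cannot go below 0.10.

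Symbols, positions, and exon lengths were from GENCODE M21 (27488 of 27546 identifiers matched). Fragments were recovered from FPKM, length, and depth, and a whole number within 0.1 was reached by 96.281% to 97.247% of values up to 20 fragments. A value of 0 allows 3 fragments, for counting error only. Summed over listed genes, fragments exceeded the estimated depth by a factor of 1.055 to 1.061, for which the cause was not tested. Genes averaging 0.5 FPKM or more were fitted on log2(FPKM + 1), with a pseudocount of 1, by limma 3.58.1 (trended eBayes, R 4.3.3). Calls required a log2 difference beyond 1 in either direction and a Benjamini-Hochberg adjusted p under 0.05. The filter removed Abcc2 and Nr0b2. The scripts were tested on simulated data.

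Alternatives were rescaling (to the same sum, by the median ratio, or by epithelial markers), voom on recovered fragments, a pseudocount of 0.1, a filter at 5 FPKM or none, a replicate block, untrended eBayes, and leaving out each mouse. The members and lists were chosen with earlier results of these data known. The named genes are the 10 members, every called pathway gene and others by role, the 5 genes most like Vdr and Slc51a, and the most abundant marker of a list, while other markers named were chosen after their values were seen. Slco1a1, Hsd3b7, Akr1d1, Defa24, and Defa30 were not matched and were not analysed here. Promoters were from RefSeq GRCm38.p6. Some genes that these rules name are counted in their lists and not reported here by name.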

Additional observations from a re-analysis of the deposited data

How the results depend on the processing

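Slc51a and Abcc3 were called lower under every alternative run. Members called (all lower) numbered 2, and 4 with a pseudocount of 0.1, by the median ratio, or without Gm31629-/- mouse 1, with a range of 2 to 4 on leaving out a mouse. Of all tested genes 3384 were called (2704 higher, 680 lower), 1449 (956 higher) at a mean FPKM of at least 5, and 2798 to 3572 without a mouse (2285 to 2892 higher, 513 to 766 lower). Lower calls numbered 1225 by the median ratio, beside 2242 higher, and 363 by epithelial markers, beside 3591 higher. Other pathway genes called numbered 13 (5 higher, 8 lower). At a mean FPKM of at least 5 they numbered 7 of 18 tested, 1 of them higher. Higher calls numbered 8 with a pseudocount of 0.1 or voom, lower calls 3 (Malrd1, S100g, and Cdx2) by epithelial markers, and on leaving out a mouse the calls numbered 11 to 18 (5 to 7 higher, 6 to 11 lower). The cause of these changes was not tested, other than the smaller number of genes tested at the stricter filter.

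Signs turned for Slc51b without Gm31629-/- mouse 1 and for Slc10a2 without Gm31629-/- mouse 3, with ranges over the left-out mice of −0.19 to 0.65 and −1.90 to 0.084. Such ranges also crossed 0 for Abcg2 (−0.21 to 0.057), Nr1i2 (−0.57 to 0.015), and Cyp3a13 (−1.15 to 0.35), each without Gm31629-/- mouse 2, and for Baat (−0.24 to 0.31) and Scp2 (−0.18 to 0.032). Signs turned by the median ratio for Slco2b1 (−0.064) and Baat (−0.013), by epithelial markers for Abcg2 (0.20), Rxrb (0.16), Nr1i2 (0.013), and Scp2 (0.29), and for Baat with a pseudocount of 0.1 (−0.042) or voom (−0.16). None of these genes was called with all 6 mice.

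Replicate numbers were not stated to pair mice, and correlations of the deviations of same-numbered mice were 0.036, −0.11, and 0.014. With the replicate number as a block, 3357 genes (2709 higher, 648 lower), 2 members, and 13 pathway genes (5 higher, 8 lower) were called.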

Other observations

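Enteroendocrine cells carry Gpbar1 and release peptide hormones. Of their 8 markers 3 rose (Gcg, Pyy, and Insl5) and 1 fell (Sct), with sums of 1075 to 2511 FPKM in Gm31629-/- mice and 259 to 342 FPKM in WT mice. Of 4 tested Paneth cell markers, Lyz1 rose and Mmp7 fell, with sums of 126, 27.6, and 76.3 FPKM against 21.6 to 26.0 FPKM. Of 8 hepatocyte markers 2 were tested, of which Cyp2e1 rose (9.82, 39.8, and 13.3 FPKM in Gm31629-/- mice and 0.301, 0.540, and 7.08 FPKM in WT mice) and Ttr did not pass the test. The other 6 were each at 0.479 FPKM or less in every library, with Alb, the defining product of hepatocytes, at 0.116 FPKM or less. These lists were described by counts, and the named markers were chosen after their values were seen.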
